A study of Homo sapiens with 2 samples.

Results

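The BCL2 family apoptosis regulators described here are 10 genes, the anti-apoptotic BCL2L1 and MCL1, the effectors BAX and BAK1, and the BH3-only genes BCL2L11, BBC3, PMAIP1, BID, BAD and BIK. Their RNA was measured in Huh-7, a line of human hepatocellular carcinoma cells used at passages 15-20. One culture received 0.1% DMSO (control) for 24 hours, and the other received 0.1 mM BS008, a derivative of amiloride, for 24 hours. There was 1 library for each condition, so no spread between cultures could be estimated and no test between conditions was possible.

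The files list exons by position on hg19, without gene names, and give for each the number of reads counted on it and the RPKM, the reads scaled to exon length and to the library total. An exon as listed in the files is called a row below, and the rows of a gene are numbered from its 5′ end. The 10 genes were located by windows on hg19, with the strand stated, and 58 of the 239322 rows fell inside them. Rows were picked by chromosome and strand, which the windows fixed and which are those of the annotated genes. By length, 38 of the 58 matched exactly an exon of the same gene in GENCODE release 29. Among them were all 9 rows of BCL2L11 but 1 of 5 for BCL2L1 and 1 of 4 for BAD. Of the 58 rows, 3 had no reads in either library and 4 had reads in only 1 library.

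Proteins of the BCL2 family decide whether the outer mitochondrial membrane of a stressed cell stays closed. BAX and BAK, once activated, oligomerize in that membrane and release cytochrome c, which starts the caspase cascade, while BCL-XL and MCL1 hold them and their activators in check. BH3-only proteins relay damage, endoplasmic reticulum stress or loss of growth signals to the other members, and liver cells are known to depend on BCL-XL and MCL1 for survival.

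The files hold 55476654 counts for control cells and 53578432 for BS008-treated cells. Reads on the 10 genes numbered 22449 and 30117, which was 0.0405% and 0.0562% of the totals. Mitochondrial rows held 11.8% of the control library and 13.1% of the BS008 library. All intervals below are at the 95% level and cover the sampling of reads only, not the variation between cultures. A count of 0 allows up to 3 counts, or 0.0541 CPM (counts scaled to the library total) in control cells and 0.056 CPM after BS008. As RNA of whole cultures was sequenced, fewer cells with a transcript and less of it in each cell cannot be told apart.

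The genes moved in different directions (plot of the ratios for summed reads). With all rows of a gene summed and divided by the library total, MCL1, BCL2L11, BBC3 and PMAIP1 were at least 2-fold higher in BS008-treated cells and 0 genes were at least 2-fold lower. Intervals of the ratio lay above 1 for 6 genes, the others being BAK1 and BCL2L1, and below 1 for 3 genes, BAX, BID and BAD. The interval for BIK included 1. The files name no genes, so no share of all genes at least 2-fold changed can be set beside these counts. At the level of rows such a background exists. The files have 131330 rows with a count of 10 or more in at least 1 library, and on log2(CPM + 0.5) 3.73% of these were higher by 2-fold or more and 3.79% lower. Of the 43 BCL2 family rows that passed this minimum, 8 were higher and 1 was lower. The median log2 ratio of BS008 to control was 0.09 for the 43 and -0.04 for all 131330. With a minimum of 50 counts, 32 family rows remained with the same numbers of 8 and 1, against 4.98% higher and 5.25% lower among 92172 rows. The 8 higher rows came from 4 genes, and rows of 1 gene are not independent of each other.

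**Figure D1:**
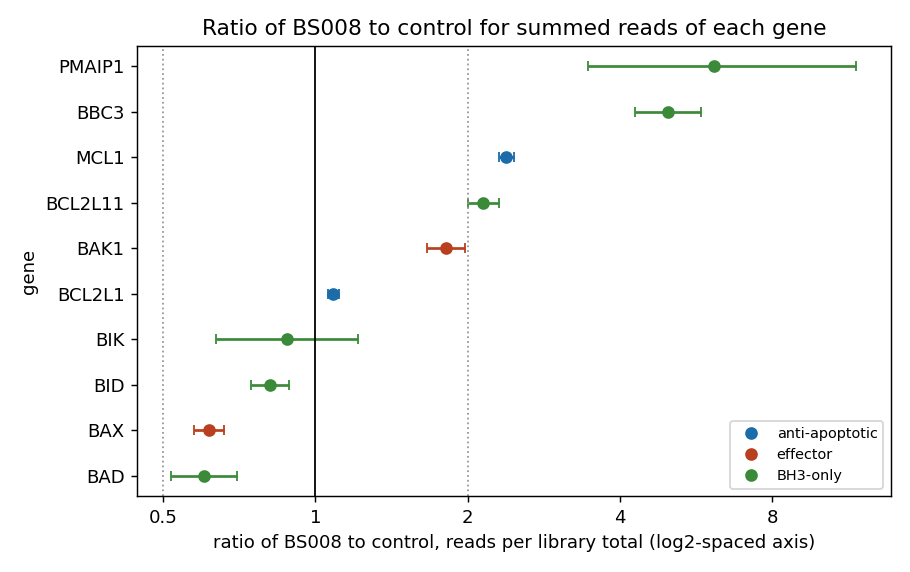
Ratio of BS008 to control for the summed reads of each gene, divided by the library total, on a log2-spaced axis, with points for the ratio, bars for the 95% interval for the sampling of reads, colours for the role, and dotted lines at 2-fold in either direction. PMAIP1 (6.14) and BBC3 (4.97) lie farthest to the right and BAD (0.604) and BAX (0.618) farthest to the left.

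Of the anti-apoptotic genes, BCL2L1, which encodes BCL-X, had the highest level per length of the family in both libraries when all rows of a gene were summed. By the median RPKM over rows it was first in control cells (44.5, against 21.2 for MCL1) but second to MCL1 in the BS008 library (43.8 and 50.5). Its 5 rows on chromosome 20 (minus strand, 30252263 to 30311729) held 11917 reads in control cells and 12485 after BS008. The level was 77.4 RPKM (interval 76 to 78.8) and 83.9 RPKM (82.5 to 85.4), respectively. BS008-treated cells were therefore slightly higher, with a ratio of 1.09 (1.06 to 1.11) and a log2 ratio of 0.12. This small difference depended on the library size used, with a log2 ratio of 0.17 when TMM factors scaled the totals. It also depended on the last row, which has most of the reads and without which the log2 ratio was 0.23.

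BCL-X is made in a long anti-apoptotic form, BCL-XL, and a short pro-apoptotic form, BCL-XS, by the choice between alternative 5′ splice sites at the end of the same exon. The stretch that only the long form keeps is shown because this splicing choice was a subject of the study. In GENCODE release 29 on GRCh38 it is the end of exon 2 of BCL2L1-201, at chr20:31721655-31721843 on the minus strand. Its 189 bases, 63 codons of protein coding sequence, are in capitals and follow the last 20 bases shared with BCL-XS (BCL2L1-202) in lower case. They hold the BH1 region and the first part of the BH2 region, which form part of the groove that binds BH3 domains.
BCL2L1 exon 2, part absent from BCL-XS: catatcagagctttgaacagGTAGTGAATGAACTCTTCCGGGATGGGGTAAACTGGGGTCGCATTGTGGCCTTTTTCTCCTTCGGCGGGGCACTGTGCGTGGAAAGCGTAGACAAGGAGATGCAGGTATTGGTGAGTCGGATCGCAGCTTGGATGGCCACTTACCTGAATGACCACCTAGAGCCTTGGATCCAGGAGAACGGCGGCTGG
The RT-PCR primers of the study lie in exons 2 and 3, on either side of this stretch, and give 318 bp from BCL2L1-201 and 129 bp from BCL2L1-202.
BCL-X forward: gacgagtttgaactgcggta
BCL-X reverse: tgctgcattgttcccataga
The files hold this exon as a single row of 694 bases, the length of exon 2 in BCL2L1-201 (row 3, chr20:30309458-30310151 on hg19). Reads of either form fall on it, so the counts cannot separate BCL-XL from BCL-XS.

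That row was the one whose share of the BCL2L1 reads differed most. It held 2355 reads in control cells and 2771 after BS008, or 19.8% and 22.2% of the gene. The share was higher by 2.43 percentage points (1.41 to 3.45). The last row, 1627 bases long, held 8927 and 9091 reads, and its share was lower by 2.09 points, from 74.9% to 72.8%. Row 1, of 63 bases, had 8 and 10 reads. The reads on BCL2L1 were thus spread over the gene in much the same way in both libraries, with the largest shift in these shares under 3 points. Set only against the rows on either side of it, row 2 went from 19.8% to 16.6%. That was a change of -3.15 points (-5.07 to -1.24).

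MCL1, a short-lived anti-apoptotic protein that holds BIM, NOXA and BAK, was higher in BS008-treated cells. Its 3 rows on chromosome 1 (minus strand, 150547037 to 150552136) held 4376 reads in control cells and 10081 after BS008. The level per length was 19.7 RPKM (19.1 to 20.3) and 47.1 RPKM (46.2 to 48). The ratio was 2.39 (2.3 to 2.47) and the log2 ratio 1.25. All 3 rows were at least 2-fold higher. The first row had 584 and 1246 reads (log2 ratio 1.11), the second 350 and 911 (1.36) and the last 3442 and 7924 (1.25).

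The second row of MCL1 has the length of exon 2, the exon whose skipping turns the anti-apoptotic long form into a short, pro-apoptotic one. Its sequence is shown for that reason. In MCL1-202 of GENCODE release 29 it lies at chr1:150578244-150578491 on the minus strand of GRCh38, is entirely coding, and its 248 bases are not a multiple of 3. Capitals mark the exon and lower case the 20 bases of exons 1 and 3 on either side. Of the 4 MCL1 transcripts annotated, 2 carry an exon of this length.
MCL1 exon 2: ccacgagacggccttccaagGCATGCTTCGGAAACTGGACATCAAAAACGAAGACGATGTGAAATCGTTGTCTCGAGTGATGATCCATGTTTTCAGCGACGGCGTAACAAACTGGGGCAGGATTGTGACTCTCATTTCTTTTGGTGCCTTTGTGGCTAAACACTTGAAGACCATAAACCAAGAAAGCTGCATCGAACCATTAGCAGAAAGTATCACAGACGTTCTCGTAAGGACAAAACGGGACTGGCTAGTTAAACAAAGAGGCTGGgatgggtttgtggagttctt
The share of MCL1 reads on this exon was 8% (7.23 to 8.84) in control cells and 9.04% (8.49 to 9.61) after BS008. It was higher by 1.04 points (0.0369 to 2), which barely clears the sampling of reads. The last row held 78.7% and 78.6% of the MCL1 reads.

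The 2 anti-apoptotic genes together stood at 97.1 RPKM in control cells and 131 RPKM after BS008. MCL1 made up 20.3% of that sum in control cells and 35.9% after BS008. The level of BCL2L1 was 3.92 times that of MCL1 in control cells and 1.78 times after BS008, from summed rows. The 2 genes thus stood closer together after treatment, and by the median over rows their order turned (plot of levels by gene).

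**Figure D2:**
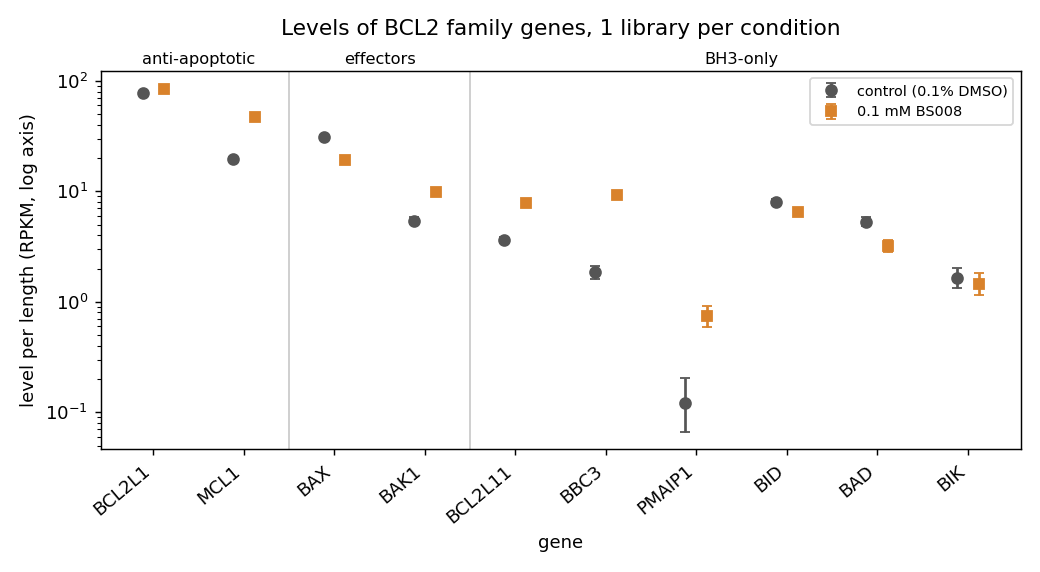
Level per length (RPKM, log axis) of each gene in control cells (grey circles) and BS008-treated cells (orange squares), 1 library each, with exact Poisson 95% intervals for the sampling of reads. MCL1 lies at 19.7 and 47.1 RPKM and BAX at 31.2 and 19.3 RPKM, so their order is exchanged between the libraries.

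The effectors, the pore-forming members, differed in opposite directions. BAX, which sits in the cytosol until it is activated, had 7 rows on chromosome 19 (plus strand, 49458117 to 49465054) with 2173 reads in control cells and 1296 after BS008. The level was 31.2 RPKM (29.9 to 32.5) and 19.3 RPKM (18.2 to 20.4). BS008-treated cells were lower, with a ratio of 0.618 (0.576 to 0.662) and a log2 ratio of -0.68.

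Rows of BAX did not move together. The second row, of 52 bases (chr19:49458805-49458856 on hg19), was the only family row with at least 10 counts that was called 2-fold lower. It held 156 reads in control cells and 53 after BS008, a log2 ratio of -1.15 and a ratio of 0.352 (0.253 to 0.483). On the log2 ratio, which carries the pseudocount, it crossed the 2-fold line by a small margin. With a pseudocount of 1 CPM, 0 family rows were called lower. The pseudocount understates differences of rows with few reads, and the ratio of 0.352 was taken without it. The last row, of 266 bases (chr19:49464789-49465054), had 258 and 251 reads, with a ratio of 1.01 (0.843 to 1.2). The first row, of 103 bases, had 36 and 28 reads.

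The second row has the length of BAX exon 2, which is shown because it has the lowest ratio among family rows with at least 10 counts. In BAX-202 it lies at chr19:48955548-48955599 on the plus strand of GRCh38, is entirely coding, and is not a multiple of 3 in length. Capitals mark the exon and lower case the 20 neighbouring bases of the mature transcript on either side. Of 13 annotated BAX transcripts, 5 carry an exon of this length.
BAX exon 2: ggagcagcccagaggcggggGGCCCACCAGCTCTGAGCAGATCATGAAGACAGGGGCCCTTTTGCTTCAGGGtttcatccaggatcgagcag
Its share of the BAX reads was 7.18% in control cells and 4.09% after BS008, a change of -3.09 points (-4.59 to -1.5). The share on the last row was 11.9% in control cells and 19.4% after BS008. That was higher by 7.49 points (4.99 to 10.1), the largest shift in share among the 8 genes with at least 100 reads in each library. Without the last row, BAX had 1915 and 1045 reads, a ratio of 0.565 (0.524 to 0.61), and the share of exon 2 was still lower, at 8.15% and 5.07%, a change of -3.07 points (-4.83 to -1.19).

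A much more abundant row lies 3511 bases downstream of the last BAX row on the same strand, and it moved the other way from BAX. It had 90854 control reads and 152698 after BS008, a ratio of 1.74 (1.73 to 1.75). Its part in the reads of the last BAX row was not tested. The sixth row, of 453 bases, held 814 and 451 reads and starts 722 bases before the last one, the same distance as between exons 5 and 6 of BAX-202. It is 348 bases longer than the 105 bases of that exon 5, so it extends into sequence that BAX-202 removes as an intron, and a gap of 269 bases separates it from the last row.

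BAK1 encodes BAK, the effector that resides in the mitochondrial membrane. Its 8 rows on chromosome 6 (minus strand, 33540324 to 33548070) had 817 control reads and 1430 after BS008, all 8 with a higher CPM after BS008. The level was 5.41 RPKM (5.05 to 5.8) and 9.81 RPKM (9.31 to 10.3). The ratio was 1.81 (1.66 to 1.98), with a log2 ratio of 0.84, just under 2-fold. The pseudocount understates differences of rows with few reads. Without it the ratio was 2.65 (1.65 to 4.39) for row 3, 2.02 (1.37 to 3.02) for row 4, 2.15 (1.53 to 3.05) for row 5 and 2.21 (1.535 to 3.22) for row 7. All these intervals reach below 2. Rows 1, 6 and 8 had ratios of 1.58, 1.24 and 1.72, and row 2 had 0 and 3 reads. No share of all rows was computed without the pseudocount. At the 5′ end, row 1 had 42 and 64 reads. The last row, of 1361 bases, had 607 and 1009 reads, and its share was lower by 3.74 points, with an interval from -7.49 to 0.13 that includes 0.

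Summed per length, the effectors stood at 36.6 RPKM in control cells and 29.1 RPKM after BS008. The level of BAX was 5.77 times that of BAK1 in control cells and 1.96 times after BS008. BAX remained the higher of the 2 in both libraries.

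Among the BH3-only genes, BCL2L11, BBC3 and PMAIP1 were higher, and these are the members best known for control at the level of transcription. BCL2L11 encodes BIM, which binds all anti-apoptotic members and can activate BAX and BAK directly. Its 9 rows on chromosome 2 (plus strand, 111878491 to 111926022) had 1158 control reads and 2402 after BS008. The level was 3.62 RPKM (3.42 to 3.84) and 7.78 RPKM (7.47 to 8.09). The ratio was 2.15 (2 to 2.31), with a log2 ratio of 1.08.

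Of the BCL2L11 rows, 2 were called at least 2-fold higher. The second row, of 407 bases, had 91 and 291 reads (log2 ratio 1.47), and the fifth row, of 104 bases, had 41 and 108 reads (1.02). The last row, of 4313 bases, fell just short of the line with 994 and 1936 reads (0.99). BCL2L11 thus moved along most of its length, but not evenly. The last row held 85.8% of the gene's reads in control cells and 80.6% after BS008, a change of -5.24 points (-7.73 to -2.62). The share of the second row was higher, 12.1% against 7.86%, by 4.26 points (2.15 to 6.22). BCL2L11 row 1 had 20 and 43 reads. Without the last row, the log2 ratio of BCL2L11 was 1.41.

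BBC3 encodes PUMA, a p53 target that neutralizes every anti-apoptotic member. Its 5 rows on chromosome 19 (minus strand, 47724080 to 47736023) had 216 control reads and 1036 after BS008. The level was 1.86 RPKM (1.62 to 2.12) and 9.23 RPKM (8.68 to 9.81). The ratio was 4.97 (4.28 to 5.78) and the log2 ratio 2.17, the largest log2 ratio in the family. Without the last row, which has most of the reads, the log2 ratio of BBC3 was 1.54. That value rests on few reads, where the pseudocount understates differences. The fourth row, of 191 bases, had 28 and 125 reads (log2 ratio 1.5), and its ratio without the pseudocount was 4.62 (3.05 to 7.24). The last row, of 1096 bases, had 180 and 884 (2.18). Row 1 of BBC3 had 1 read and 0 reads. The last row held 83.3% and 85.3% of the BBC3 reads, a difference of 2 points with an interval from -2.94 to 7.9, so no shift within the gene was detectable at this depth.

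PMAIP1 encodes NOXA, a BH3-only protein that binds MCL1. It was the least abundant member in both libraries, with 14 reads in control cells and 83 after BS008 over 3 rows on chromosome 18 (plus strand, 57567192 to 57571538). The level was 0.121 RPKM (0.0661 to 0.203) and 0.742 RPKM (0.591 to 0.92). Its ratio of 6.14 was the highest in the family but also the least precise, with an interval from 3.46 to 11.7, and the pseudocount brought the log2 ratio to 1.45. This rests on 1 row, the last one, of 1660 bases, with 10 and 74 reads. The first row had 4 and 9 reads, a ratio of 2.33 with an interval from 0.65 to 10.35 that includes 1. Without the last row only these reads remained, and with the pseudocount the log2 ratio of PMAIP1 was 0.22.

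BID, BAD and BIK were not higher. BID links death receptors to mitochondria once caspase-8 has cleaved it. Its 9 rows on chromosome 22 (minus strand, 18216906 to 18257431) had 1206 control reads and 947 after BS008. The level was 7.98 RPKM (7.54 to 8.45) and 6.49 RPKM (6.08 to 6.92). The ratio was 0.813 (0.746 to 0.886) and the log2 ratio -0.29, a small difference.

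The fifth BID row, of 211 bases (chr22:18226569-18226779 on hg19), had 185 control reads and 89 after BS008. Its ratio of 0.498 (0.382 to 0.645) was the lowest of the BID rows with at least 10 counts, while its log2 ratio with the pseudocount, -0.83, stayed short of the 2-fold line. Its share of the gene was 15.3% and 9.4%, a change of -5.94 points (-8.68 to -3.15). The last row, of 1452 bases, had 469 and 430 reads, and its share was 38.9% and 45.4%, higher by 6.52 points (2.32 to 10.7). This last row shares 1075 bases with a row of the opposite strand that had 362 and 481 reads. Whether strand was kept in counting is not given in the sources used here, so reads of the 2 rows may be mixed. Without the last row, BID had 737 and 517 reads, a ratio of 0.726 (0.648 to 0.814), and the share of the fifth row was 25.1% and 17.2%, a change of -7.89 points (-12.3 to -3.28). Row 1 had no reads in either library.
The fifth row has the length of BID exon 3, which is shown because it lost share with and without the last row. In BID-201 it lies at chr22:17743803-17744013 on the minus strand of GRCh38 and is entirely coding. All its 211 bases are in capitals. Of 15 annotated BID transcripts, 10 carry an exon of this length.
BID exon 3: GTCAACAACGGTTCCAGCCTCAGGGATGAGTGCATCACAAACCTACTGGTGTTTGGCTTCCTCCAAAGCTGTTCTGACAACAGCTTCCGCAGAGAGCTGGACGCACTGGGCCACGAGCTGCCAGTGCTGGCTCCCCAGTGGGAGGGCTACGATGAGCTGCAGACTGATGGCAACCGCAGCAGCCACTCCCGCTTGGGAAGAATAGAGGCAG

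BAD, which is held inactive by phosphorylation when growth factors signal, was lower in BS008-treated cells. Its 4 rows on chromosome 11 (minus strand, 64037301 to 64052176) had 485 control reads and 283 after BS008. The level was 5.32 RPKM (4.85 to 5.81) and 3.21 RPKM (2.85 to 3.61), and the ratio was 0.604 (0.52 to 0.701), with a log2 ratio of -0.68. The first row, with 144 and 71 reads, and the last, with 228 and 138, both overlap rows of the opposite strand. Without them BAD had 113 and 74 reads and a ratio of 0.678 (0.499 to 0.917). The first row had the largest difference in share, from 29.7% to 25.1%, with an interval from -10.9 to 2.02 points that includes 0. Row 2 went the other way from the rest of BAD, with 2 and 8 reads, a ratio of 4.14 (0.827 to 40) and a share higher by 2.41 points (0.657 to 5.08), and it is part of the value given without rows 1 and 4.

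BIK, a BH3-only protein of the endoplasmic reticulum, did not differ between the libraries beyond the sampling of reads. Its 5 rows on chromosome 22 (plus strand, 43506757 to 43525717) had 87 control reads and 74 after BS008. The level was 1.65 RPKM (1.32 to 2.04) and 1.46 RPKM (1.14 to 1.83), and the ratio was 0.881 (0.637 to 1.22). The first row had 4 reads in each library, and the last had 40 and 33.

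Summed per length, the BH3-only genes stood at 20.6 RPKM in control cells and 28.9 RPKM after BS008. BID and BAD were the most abundant of them in control cells, with 38.8% and 25.9% of that sum. In BS008-treated cells BBC3 and BCL2L11 were, with 31.9% and 26.9%, up from 9.05% and 17.6%. This ranking holds for summed rows only. By the median RPKM over rows after BS008, BID (5.53) and BAD (3.8) stayed above BCL2L11 (2.33) and BBC3 (1.03). Without those last 2 genes, the sum went from 15.1 to 11.9 RPKM. The anti-apoptotic sum was 4.72 times the BH3-only sum in control cells and 4.53 times after BS008, so both sums were higher by a similar factor. These are sums of transcript levels and carry no information on protein.

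The order of the genes by level per length in control cells was BCL2L1, BAX, MCL1, BID, BAK1, BAD, BCL2L11, BBC3, BIK and PMAIP1. Neighbours in this order had overlapping intervals for BAK1 and BAD and for BBC3 and BIK. In BS008-treated cells the order was BCL2L1, MCL1, BAX, BAK1, BBC3, BCL2L11, BID, BAD, BIK and PMAIP1, and BAK1 and BBC3 were the only neighbours with overlapping intervals. BCL2L1 stayed first and PMAIP1 last, while BBC3 went from the eighth place to the fifth. By the median RPKM over rows, MCL1 was first after BS008, PMAIP1 was still last in both libraries, and BBC3 was in place 9 in both, so its move up the order was lost. The summed levels were taken over all rows of a gene, including rows of rarely used exons, which lowers the level of genes with many such rows.

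The rows with at least 10 counts in either library lie close together within BCL2L1, MCL1, BAK1, BAD and BIK (plot of row ratios by gene). They are spread more widely within BAX, BCL2L11, BBC3 and BID, and PMAIP1 has only 1 such row. BBC3 rows 2 and 3, with few reads, lie at 0.3 and 0.53, where the pseudocount understates differences. All 3 MCL1 rows and the BBC3 rows with most reads lie above 2-fold, outside the range from -0.92 to 0.89 that holds the log2 ratios between the 5th and 95th percentiles of all rows. BAK1 rows lie inside that range but all on the higher side. BAX spans the range from exon 2 below it to the last row at 0.01.

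**Figure D3:**
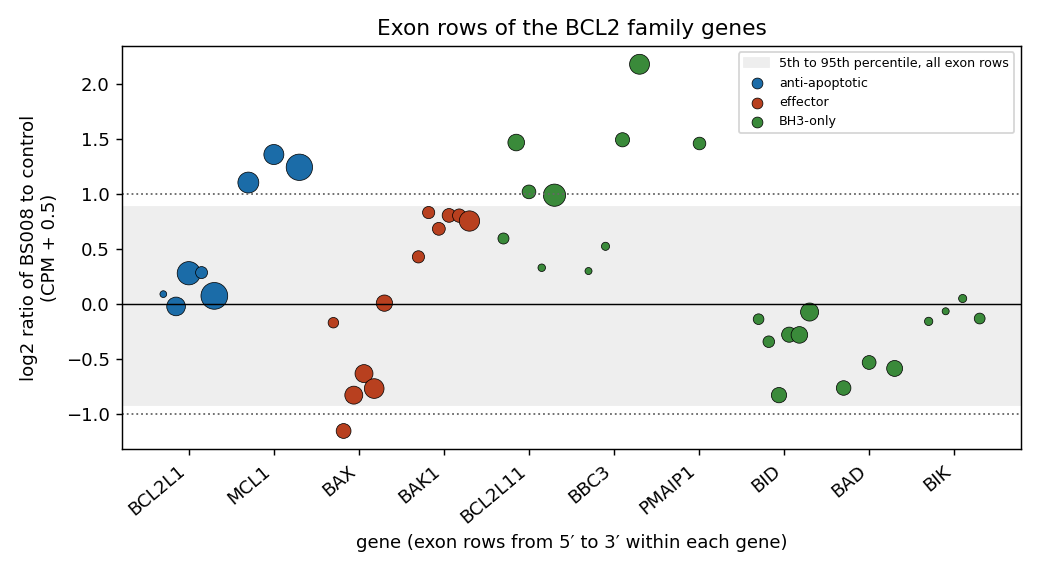
Log2 ratio of BS008 to control on CPM + 0.5 for each row with at least 10 counts in either library, in 5′ to 3′ order within each gene, with larger points for more reads, colours for the role, dotted lines at 2-fold and a grey band from the 5th to the 95th percentile of all rows of the files. The 8 rows above the upper line belong to MCL1, BCL2L11, BBC3 and PMAIP1, and BAX exon 2 (-1.15) is the only plotted row below the lower line.

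Since BS008 was studied for its effect on alternative splicing, shares of reads within a gene were compared, which do not move when the whole gene does. Of the 50 rows of the 8 genes with at least 100 reads in each library, 0 changed in share by at least 10 percentage points and 4 by at least 5 points. These 4 were the last rows of BAX, BCL2L11 and BID and the fifth row of BID. The interval of the difference excluded 0 for 11 of the 50 rows, and the median absolute difference was 0.621 points. No share of all rows can be set beside these counts, since the files name no genes. A higher share on a row also comes with lower shares elsewhere in its gene, so the 11 are not separate shifts. The last row gained share in 4 genes and lost share in 4, so the 8 genes had no common direction at the 3′ end.

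**Figure D4:**
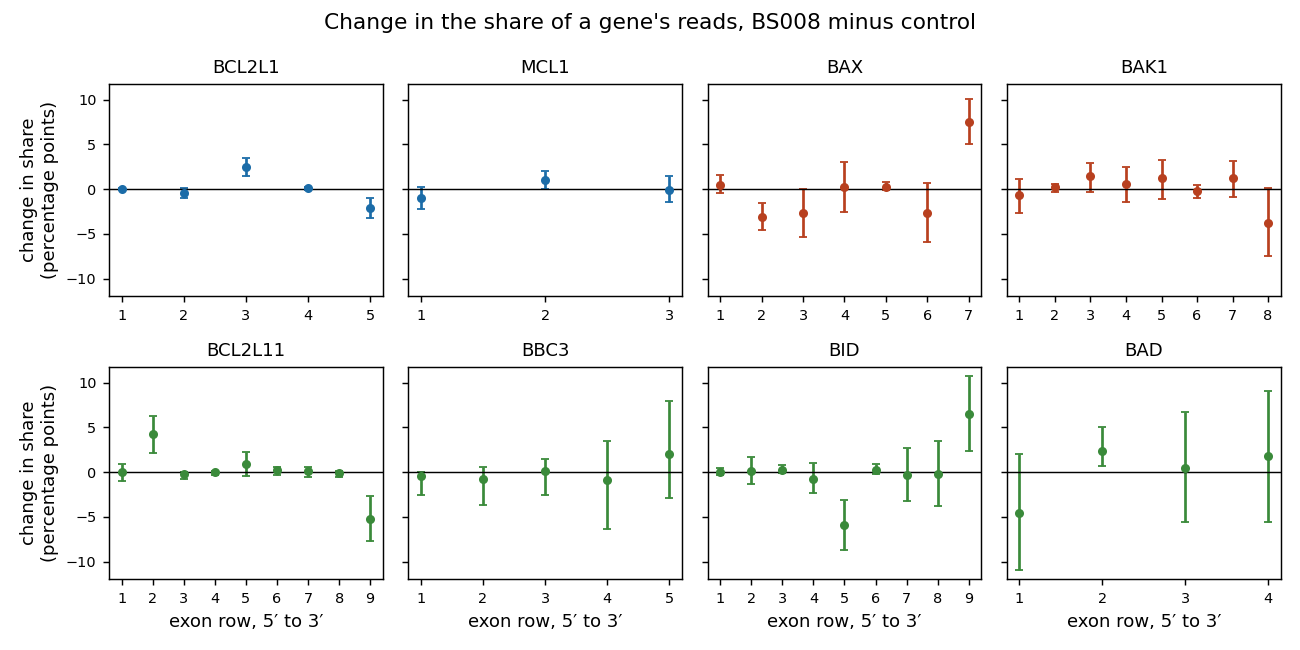
Change in the share of a gene's reads on each row (BS008 minus control, percentage points) for the 8 genes with at least 100 reads in each library, with 95% Newcombe intervals for the sampling of reads and rows in 5′ to 3′ order. The last row of BAX (7.49 points), the last row of BID (6.52) and the fifth row of BID (-5.94) lie farthest from 0.

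A second measure, available for all rows of the files, set each row against the nearest row of the same strand on either side within 10 kb. It could be computed for 32 family rows, where the row and its neighbours together had at least 20 reads in each library. Rows with few reads of their own are therefore among the 32, such as BAK1 row 2 with 0 and 3 reads. Its value moved by at least 10 points for 2 of them, against 5.97% of the 98954 rows of the files. Both were in BAX, and a count of 2 in 32 is close to that background. The sixth BAX row, which has the last BAX row as a neighbour, had 75.7% of the local reads in control cells and 63.8% after BS008, a change of -11.9 points (-16.3 to -7.57). The first BAX row went from 18.6% to 33.7%, higher by 15.2 points (4.12 to 26.9). It had only 36 and 28 reads of its own, a ratio of 0.805 (0.473 to 1.36), so it did not itself gain reads. Its neighbours are BAX exon 2, with 156 and 53 reads, and a row outside the gene. The lower count of exon 2 thus enters this value as well as that of exon 2. BAX exon 2 was lower on this measure too, by a change of -7.41 points (-12.5 to -1.91). For exon 3 of BID the change was -7.33 points, with an interval from -17.1 to 1.93 that includes 0. The median absolute change was 2.68 points over the 32 family rows and 2.06 points over all rows.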

How the data were processed

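Both libraries were used, grouped by the treatment entry among the characteristics in their labels, which differs between them. The treatment protocol in the labels names BS008 for both, so which library is the control rests on that entry. The authors deposited raw counts of reads per exon, without normalization, and RPKM values, which scale them to exon length and the library's total. Recomputed from the counts, RPKM differed by at most 4.72e-06. The build is hg19 per the submitters' processing notes, and the aligner, counter, annotation and use of strand are not given in the sources used here. The members and lists were chosen with earlier results of these data known. Rows inside the windows were summed by gene and divided by the library total. Log2 ratios carried a pseudocount of 0.5 CPM and needed at least 10 counts in either library for rows. Ratios have exact conditional (Clopper-Pearson) intervals, shares Wilson and their differences Newcombe intervals, and levels exact Poisson intervals. Reads without molecular identifiers are not independent molecules, so these intervals are lower limits of the error. Named rows were, for each gene, the one whose share moved most (at least 100 reads in each library), the first and last, and those changed by 2-fold or more that reached 50 counts in 1 library, and further rows were chosen after their values were seen. The computations were tested on simulated data. Alternatives were other library sizes (TMM, without mitochondrial rows), pseudocounts, count minimums, thresholds and neighbour distances, and leaving out rows. BCL2, BCL2L2, BCL2A1, BMF, HRK, BOK, APAF1, CYCS and VDAC2 and the hepatocyte markers ALB, AFP, APOA1, TTR and SERPINA1 were not analysed here, since the files name no genes and no positions on hg19 were at hand. Transcript sequences came from GENCODE release 29 on GRCh38 and promoters from RefSeq on GRCh38.p14. Positions were never converted between builds, and only lengths and distances were compared. Python 3.11.15, numpy 2.4.6, scipy 1.17.1, pandas 2.3.3, matplotlib 3.10.9, R 4.3.3 and edgeR 4.0.16 (TMM factors) were used.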

Additional observations from a re-analysis of the deposited data

How the results depend on the processing

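Each choice was changed by itself. The 4 genes at least 2-fold higher and the 0 lower were the same counts under every other library size and pseudocount. Without the row with most reads, 3 genes were higher. PMAIP1 then dropped out at 0.22, on only 4 and 9 reads, where the pseudocount understates differences. Each of 70 alternative log2 ratios of genes was compared with the reported one. The allowed difference was the distance from the middle to the ends of the ratio's interval on the log2 scale, without pseudocount. Within it were 61, while 9 differed by more and 0 changed direction. For PMAIP1 the interval is wide, so 1.02 and 2.23 with pseudocounts of 1 and 0.1 CPM are among the 61, against a reported 1.45. Not all of the 61 could have differed. No family row overlaps another on the same strand, so leaving such rows out repeats the reported ratio for every gene. Leaving out rows that overlap the opposite strand can change only BID and BAD. The 8 rows at least 2-fold higher became 13 of 43 with a pseudocount of 0.1 CPM (8.73% of all rows) and 15 with a 1.5-fold threshold (11.5% of all rows). The 1 lower row became 0 with a pseudocount of 1 CPM (2.3% of all rows) and 6 with a 1.5-fold threshold, which is 14% of the 43 against 13.9% of all rows. A threshold of 5 points gave 4 rows in place of 0 for shares within a gene and 7 of 32 in place of 2 for shares among neighbours, or 21.9% against 20.1% of all rows. The latter number was 1 of 9 with neighbours within 1 kb (5.13% of all rows) and 3 of 44 within 100 kb (6.94%). It was 1 of 21 with at least 100 reads on the row and its neighbours together (2.7%). Ordered by the median RPKM over their rows, 4 genes kept their place in the control library and 3 in the BS008 library, so the order depends on how a gene's rows are combined. Leaving out rows that overlap the opposite strand was chosen after seeing the data and gave log2 ratios of -0.44 for BID and -0.43 for BAD. The median log2 ratio of all rows was -0.04, and -0.01 with TMM factors. No paired analysis was possible because each condition has 1 library, which also leaves no replicate to leave out. The intervals were widest for PMAIP1 and BIK, with under 100 reads each in either library.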

Other observations

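Promoter sequence was available from RefSeq for 8 of the 10 genes, in 14 windows of the 250 bases before an annotated start. The motifs searched were the E-box CACGTG, the cyclic AMP response element TGACGTCA, the C/EBP-ATF site TGATGNAA and the TATA box TATAAA, on both strands, each counted by itself even where matches overlap. The E-box was present in 6.35% of 35116 promoter windows of the same length, several of which can belong to 1 gene, and in only 5 of them (0.0142%), from 5 genes, with 4 or more copies. The BAX window, at chr19:48954625-48954874 on the plus strand of GRCh38.p14, holds 4 copies, in capitals in the sequence shown here because it is one of those 5.
BAX promoter: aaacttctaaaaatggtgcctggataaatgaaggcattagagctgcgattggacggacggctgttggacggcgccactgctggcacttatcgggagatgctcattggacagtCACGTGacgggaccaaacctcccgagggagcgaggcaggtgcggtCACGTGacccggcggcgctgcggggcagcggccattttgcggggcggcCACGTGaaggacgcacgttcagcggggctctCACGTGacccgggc
The BBC3 window holds 1 copy, and 2 of the 5 BID windows hold 1, which is the same position in overlapping windows. The cyclic AMP response element and the C/EBP-ATF site, found in 1.65% and 3.14% of all promoters, had 0 matches in the 14 windows. The TATA box, found in 10.7% of all promoters, occurred 2 times in the first BCL2L1 window. These are matches of letters, and no binding was measured.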
